A study of Homo sapiens with 4 samples.

Results

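Kinesins are motor proteins that bind microtubules and use the energy of ATP to walk along them or to take them apart at their ends. The genes of this family were picked from a human gene count table by their symbols, namely KIF followed by a number with or without a letter, or KIFC followed by a number. The rule took 37 of the 20913 genes in the table. By textbook role, 14 were grouped as mitotic kinesins, 16 as transport kinesins and 7 as kinesins of cilia or of other functions. Each of the 37 passed the filter on low counts, and none had 0 reads in any library. KIF1A, KIF2B, KIF12, KIF19 and KIF26A were not analysed here.

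The libraries came from T98G cells, an established human glioblastoma line that the labels list as astroblastoma, and each group had 2 of them. The control cells carried a vector (labelled VECTOR, replicates 2 and 3). The other cells carried a construct that overexpresses LGP2, with a FLAG tag according to the column headers (labelled oeLGP2, replicates 2 and 3). LGP2 is encoded by DHX58 and is the RIG-I-like RNA helicase that lacks signalling domains of its own. The labels do not give the promoter of the construct, how many clones were used or whether replicates were separate cultures. The p-values therefore cover the variation among these 4 libraries alone, and that variation may be technical. The labels name no infection or other stimulus. The growth text speaks of 293T cells, whereas the titles and the cell line label give T98G.

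Library totals ran from 56033379 to 63932198 counts. The levels below are CPM, that is counts per 1000000 counts of the library total, and fold changes use edgeR's quasi-likelihood test over the 17863 genes that passed the filter on low counts. DHX58 (chromosome 17, 42101404 to 42112733, minus strand, GRCh38) was at 5.90 and 9.57 CPM in the vector libraries and at 544 and 538 CPM in the LGP2 libraries. Its log2 fold change was 6.09 (SE 0.24, adjusted p = 1.91e-06, edgeR), so the libraries followed their labels. VIM (2922 to 3829 CPM), CD44 (1664 to 2090 CPM) and SOX9 (45.7 to 56.5 CPM) were detected in each library, whereas GFAP (0.33 to 0.70 CPM), ALDH1L1 (0.27 to 0.74 CPM) and NES (0 to 0.58 CPM) were at or near 0. Of the glioma and astroglial markers 7 of 10 were tested, with SLC1A3 among them. They summed to 5977 and 4889 CPM with the vector and 5082 and 4779 CPM with LGP2. Their log2 fold changes ran from -0.98 to 1.94. At an unadjusted p under 0.05 by edgeR, 1 was higher and 0 were lower, against 3.00% and 1.46% of all tested genes. SOX2, S100B and AQP4 were not analysed here. Of the neuron markers 4 of 7 were tested, and they summed to 28.4 and 31.5 CPM with the vector and 45.1 and 39.5 CPM with LGP2, without overlap. Most of that was MAP2, a microtubule-associated protein (23.1 and 23.3 against 39.4 and 30.9 CPM, log2 fold change 0.55, SE 0.19), the only tested marker of this list with an unadjusted p under 0.05, and GAD1 and SLC17A7 were under 1 CPM in each library. Of the endothelial markers 2 of 5 summed to 3.21 and 5.33 against 5.68 and 8.21 CPM, of the microglia markers 2 of 6 to 109 and 94.9 against 90.3 and 82.8 CPM, and of the oligodendrocyte markers 2 of 6 to 3.82 and 2.46 against 2.21 and 5.07 CPM. The part of these cell type markers in the kinesin values was not tested.

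Most kinesins walk towards the plus end of the microtubule, which lies at the cell edge or, in the spindle, at the chromosomes. Members of the kinesin-14 class (KIFC1, KIFC2, KIFC3 and KIF25) walk the other way, and members of the kinesin-13 class (KIF2A, KIF2C and KIF24) remove tubulin from microtubule ends. In mitosis these motors push spindle poles apart, position chromosomes and organise the central spindle for cytokinesis, and many of their genes are transcribed mainly in the G2 and M phases. Transport kinesins carry vesicles, organelles and protein complexes along microtubules in cells at any stage, and kinesin-2 motors also drive transport into the cilium. In bulk libraries such as these, fewer cells of a kind and less RNA per cell cannot be told apart.

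All motor heads share an ATP-binding loop called the P-loop or Walker A motif. A search of the longest annotated coding sequences (GENCODE 29, GRCh38) found it in 36 of the 37 genes. The exception was KIF26B, whose protein is known as a kinesin without ATPase activity. The stretches below hold the 24 bases of the loop, in capitals, within 90 bases of coding sequence. They are shown because base composition differs between the genes whose fold changes are compared below, while the loop is shared.
KIF11, coding bases 280 to 369: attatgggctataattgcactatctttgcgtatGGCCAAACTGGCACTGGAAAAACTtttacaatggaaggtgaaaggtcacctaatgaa
KIF15, coding bases 292 to 381: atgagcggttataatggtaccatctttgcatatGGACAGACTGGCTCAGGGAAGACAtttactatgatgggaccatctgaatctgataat
KIF5B, coding bases 220 to 309: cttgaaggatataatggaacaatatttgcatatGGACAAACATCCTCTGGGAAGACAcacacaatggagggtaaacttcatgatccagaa
KIF3A, coding bases 265 to 354: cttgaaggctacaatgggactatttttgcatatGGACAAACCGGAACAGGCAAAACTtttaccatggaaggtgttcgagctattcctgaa
KIFC1, coding bases 1195 to 1284: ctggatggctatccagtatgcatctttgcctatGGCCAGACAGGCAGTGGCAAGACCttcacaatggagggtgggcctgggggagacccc
KIF22, coding bases 346 to 435: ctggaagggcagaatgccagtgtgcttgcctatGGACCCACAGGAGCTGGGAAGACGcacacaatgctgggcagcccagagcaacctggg
KIF1C, coding bases 256 to 345: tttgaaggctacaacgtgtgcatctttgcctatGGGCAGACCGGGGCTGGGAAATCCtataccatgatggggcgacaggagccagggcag
KIFC3, coding bases 1615 to 1704: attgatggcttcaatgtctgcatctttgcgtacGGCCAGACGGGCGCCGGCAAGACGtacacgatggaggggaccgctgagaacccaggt
The first 4 genes have coding sequences of lower GC content, which the loop itself need not show. Over the whole coding sequence the third codon position was G or C in 31.4% of codons for KIF11, 40.6% for KIF15, 34.9% for KIF5B and 33.5% for KIF3A. For the other 4 genes this share was higher, with 61.8% for KIFC1, 65.3% for KIF22, 70.2% for KIF1C and 80.8% for KIFC3.

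A further pair of stretches shows why the counts of KIF4B are uncertain. KIF4B (chromosome 5, 155013755 to 155018132, plus strand) is a single-exon copy of KIF4A (chromosome X, 70290090 to 70420832, plus strand), and 3 of the 90 bases differ between them here.
KIF4A, coding bases 229 to 318: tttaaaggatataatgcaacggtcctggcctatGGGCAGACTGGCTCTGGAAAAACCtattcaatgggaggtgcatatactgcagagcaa
KIF4B, coding bases 229 to 318: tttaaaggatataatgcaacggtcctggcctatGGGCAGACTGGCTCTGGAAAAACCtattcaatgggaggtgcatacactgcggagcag
KIF4B had 37 and 17 reads with the vector and 24 and 13 with LGP2. KIF4A was far higher, at 72.1 and 97.2 CPM with the vector and 100.96 and 79.4 CPM with LGP2. Reads of such copies could have been split between them in counting.

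Compared per length (CPM divided by exon length in kilobases, RPKM, as the mean of the 4 libraries), the mitotic motors were the most abundant kinesins of these cells. KIF2C, the depolymerase that corrects wrong attachments at kinetochores, stood first at 53.7 RPKM. KIF22, a chromokinesin that pushes chromosome arms outwards, was at 38.3 RPKM, and KIF20A, which helps bring the chromosomal passenger complex to the central spindle, was at 31.8 RPKM. The spindle-organising minus-end motor KIFC1 followed at 25.5 RPKM. The vesicle motor KIF1C, the highest transport kinesin, was at 24.3 RPKM. With this exon length KIF2C was above KIF22 in each library, at 49.6 to 61.7 against 36.1 to 42.2 RPKM. The next neighbours overlapped across libraries, with KIF20A at 26.1 to 37.4, KIFC1 at 24.1 to 27.4 and KIF1C at 22.9 to 26.4 RPKM. KIFC3 was at 16.7 RPKM per union of exons but at 46.7 RPKM per longest transcript, so its rank depends on the gene model. KIF2C and KIF22 were nearly equal per longest transcript, with means of 66.2 and 65.9 RPKM, so their separation depends on it too.

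The lowest kinesins were KIF6 at 0.0293 RPKM and KIF4B at 0.0855 RPKM. Across the family, 30 of the 37 genes had a mean of at least 5 CPM and 4 had a mean under 1 CPM. KIF2A shares an exon with IPO11 and KIF1B with RN7SL731P on the same strand, and 17 members overlap an exon on the opposite strand. Since the use of strand in counting is not given in the sources used here, their values are less certain than the others.

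**Figure D1:**
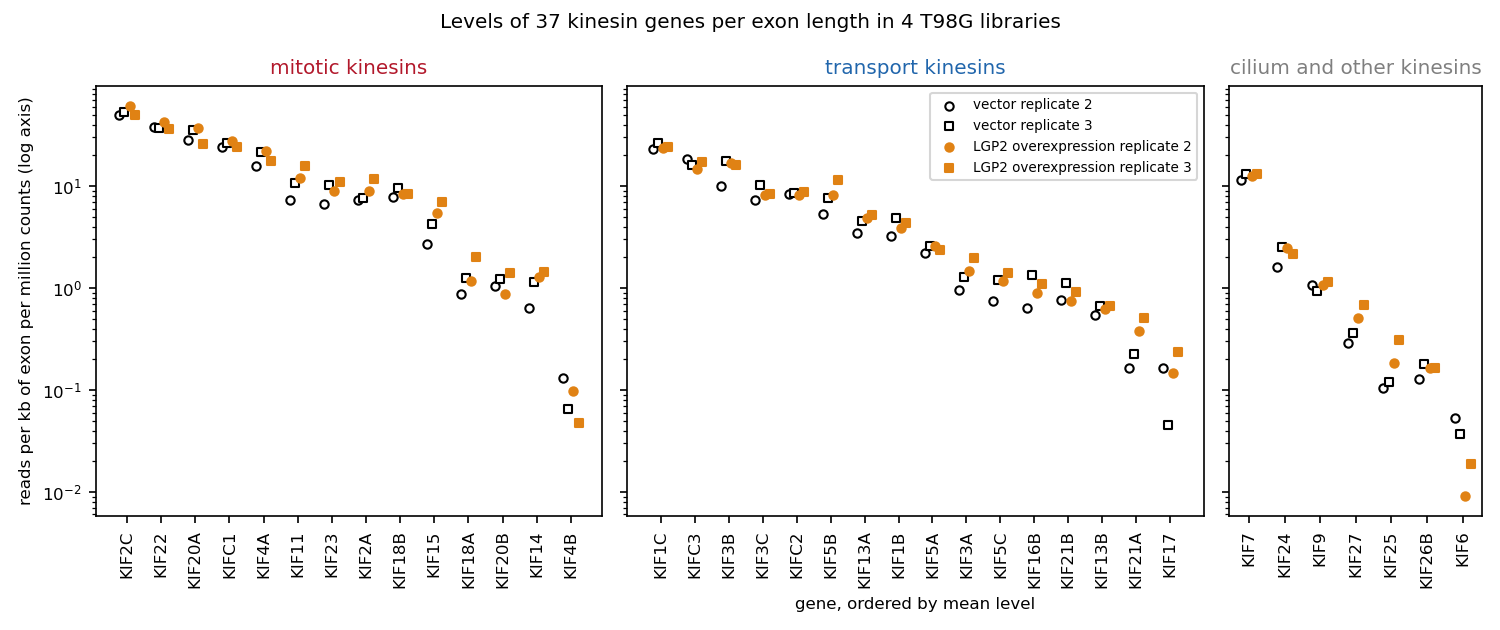
Levels of the 37 kinesin genes in RPKM, that is CPM per kilobase of exon, on a log axis, by role and ordered by mean level, with 1 point per library (open: vector; filled: LGP2 overexpression; circle: replicate 2; square: replicate 3). KIF2C is highest at a mean of 53.7 and KIF6 lowest at 0.0293, and for most genes the 4 points lie close together on this scale.

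Within families the copies were used unequally. Of the conventional kinesin heavy chains, which carry mitochondria, vesicles and mRNA, KIF5B made up 64.6% and 67.3% of the summed KIF5 level per length with the vector and 68.6% and 75.2% with LGP2. KIF5A, known mostly from neurons, made up 26.5% and 22.4% with the vector and 21.6% and 15.5% with LGP2. KIF5C held 8.93% to 10.3% in the 4 libraries. The KIF5B share was thus higher and the KIF5A share lower in both LGP2 libraries, without overlap, but this ratio of levels was not tested. In the kinesin-2 family, which moves ciliary and vesicular cargo, KIF3B held 54.1% to 62.9% of the summed level, KIF3C 31.0% to 39.9%, KIF3A 4.36% to 7.27% and KIF17 0.154% to 0.894%.

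The comparison of LGP2-overexpressing with vector cells called no kinesin gene. Over the whole table the edgeR test called 3 genes as higher (0.0168% of the tested genes) and 0 as lower (0%) at an adjusted p under 0.05, while 536 had an unadjusted p under 0.05 and were higher (3.00%) and 260 were lower (1.46%). The lowest adjusted p of a kinesin was 0.963. DESeq2 and limma-voom also called 0 kinesins, and called 13 (0.0728%) and 4 (0.0224%) genes of the table as higher. At an unadjusted p under 0.05, edgeR had 7 kinesins higher (18.9% of the 37, against 3.00% of all tested genes) and 0 lower. The 7 of edgeR were KIF15, KIF11 and KIF2A of the mitotic motors, KIF21A, KIF5B and KIF3A of the transport motors, and KIF27. DESeq2 had 6 higher (against 3.21%), the same without KIF27, and limma-voom had 7 higher (against 3.54%), with KIF14 in place of KIF27. An unadjusted p of this kind is a ranking within the table and is not a call.

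The groups did not overlap for 12 kinesins. Of them 11 were higher in both LGP2 libraries than in both vector libraries (29.7% of the family, against 19.0% of all tested genes) and 1, KIF6, was lower (2.70%, against 13.3%). The log2 fold change was above 0 for 24 of the 37 kinesins (64.9%, against 48.7% of all tested genes), namely for 9 of 14 mitotic, 9 of 16 transport and 6 of 7 other members. The median log2 fold change was 0.06 over the mitotic kinesins, 0.03 over the transport kinesins and 0.10 over the others, against -0.01 over all tested genes. For 26 of the 37 genes the 95% interval lay within a 2-fold change in either direction (70.3%, against 61.1% of all tested genes). For the other 11 a 2-fold difference lies within the interval.

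**Figure D2:**
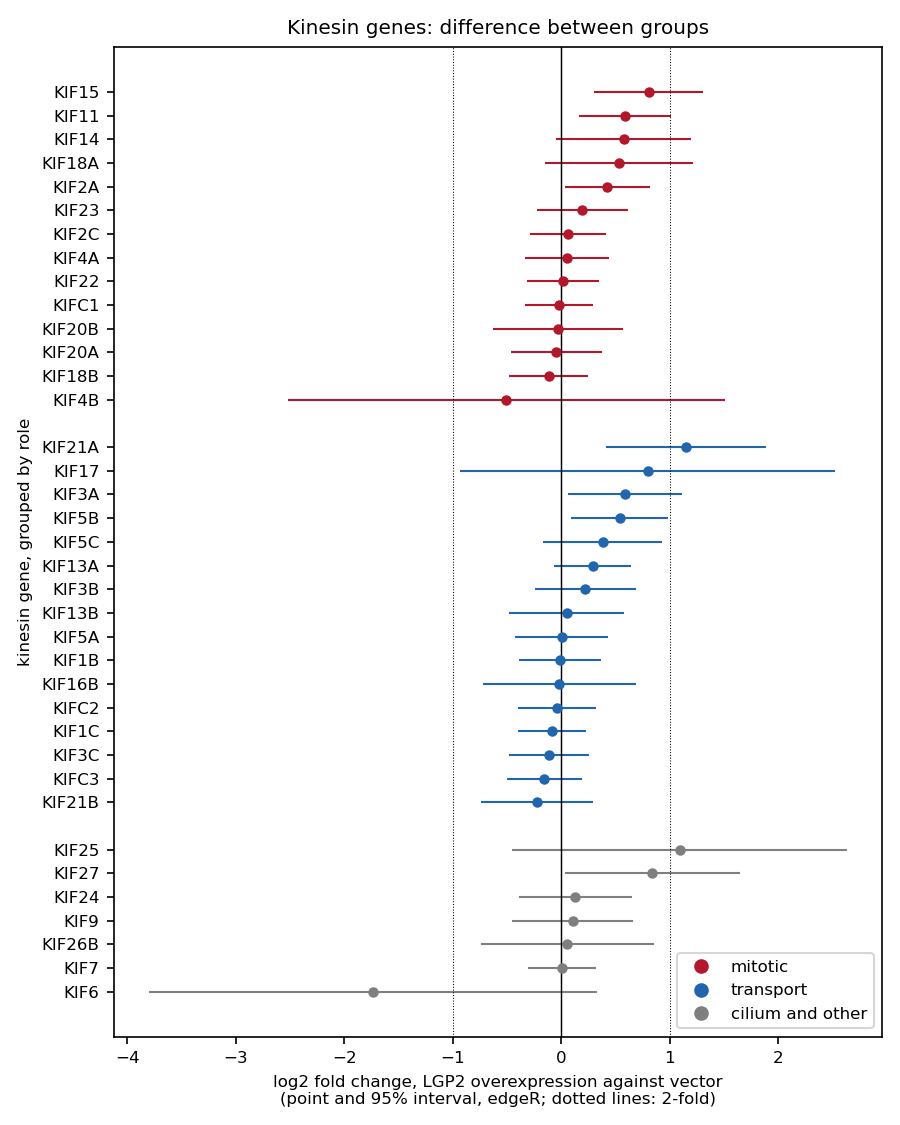
Log2 fold changes of the 37 kinesin genes, LGP2 overexpression against vector, as points with 95% intervals from edgeR, grouped by role (red: mitotic; blue: transport; grey: cilium and other; dotted lines: a 2-fold change). The interval lies above 0 for 7 genes, and none of the 37 passed the adjusted threshold; the widest intervals belong to KIF6, KIF25, KIF17 and KIF4B, which had few reads.

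The summed mitotic kinesin level was 791 and 927 CPM with the vector and 996 and 910 CPM with LGP2, so the groups overlapped. The summed transport kinesin level was 695 and 844 CPM with the vector and 770 and 844 CPM with LGP2. The other kinesins summed to 78.2 and 92.4 CPM and to 89.6 and 93.0 CPM. Vector replicate 2 had the lowest sum for each role. It was the lowest library for 25 of the 37 kinesins (67.6%), against 39.0% of all tested genes. For each role the sums of the 2 vector libraries differed by more than the group means of the sums did.

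The mitotic motor with the largest fold change was KIF15, which can keep spindles bipolar when KIF11 is inhibited (chromosome 3, 44761717 to 44873376, plus strand). It was at 14.2 and 22.5 CPM in the vector libraries and at 29.02 and 36.8 CPM in the LGP2 libraries. Both LGP2 libraries were above both vector libraries, but the gap, from 22.5 to 29.02 CPM, was smaller than the spread within either group. The means were 18.3 ± 5.87 and 32.9 ± 5.49 CPM (SD, n = 2). The ratio of LGP2 to vector, 0.80 on the log2 scale (SE 0.23, 95% interval 0.30 to 1.31), did not pass the test (adjusted p = 0.963, edgeR).

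KIF11, the tetrameric motor that slides antiparallel microtubules and pushes the spindle poles apart (chromosome 10, 92593286 to 92655395, plus strand), was at 35.3 and 51.7 CPM with the vector. With LGP2 it was at 57.9 and 76.6 CPM. Again the groups did not overlap, and again the gap between them, from 51.7 to 57.9 CPM, was smaller than the spread within either. KIF11 did not pass either, with 0.59 on the log2 scale (SE 0.19, 95% interval 0.16 to 1.01, adjusted p = 0.998, edgeR).

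KIF2A, a depolymerase that acts at spindle poles and also outside mitosis (chromosome 5, 62306162 to 62537249, plus strand), was at 35.0 and 36.2 CPM in the vector libraries and at 42.4 and 56.3 CPM in the LGP2 libraries. Relative to their level, its vector libraries lay closer together than those of any of the other 6 genes with an unadjusted p under 0.05. KIF2A had 0.42 on the log2 scale and did not pass (SE 0.18, 95% interval 0.03 to 0.81, adjusted p = 0.998, edgeR). KIF14, a midbody motor needed for cytokinesis (chromosome 1, 200551497 to 200620734, minus strand), was at 4.60 and 8.38 CPM against 9.30 and 10.5 CPM, with a log2 fold change of 0.58 (SE 0.28) and an interval that includes 0. KIF18A, which dampens chromosome oscillations, had 4.11 and 5.87 CPM against 5.48 and 9.35 CPM, so its groups overlapped.

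The 4 most abundant mitotic motors per length had fold changes from -0.05 to 0.06. KIF2C (chromosome 1, 44739818 to 44767767, plus strand) was at 181 and 196 CPM with the vector and 225 and 181 CPM with LGP2, a log2 fold change of 0.06 (SE 0.16, 95% interval -0.29 to 0.41). KIF22 (chromosome 16, 29790719 to 29805385, plus strand) was at 163 and 160 CPM against 182 and 156 CPM, with 0.02 on the log2 scale (95% interval -0.32 to 0.35). The groups overlapped for both. KIF20A (chromosome 5, 138178719 to 138187715, plus strand) was at 112 and 140 CPM against 148 and 103 CPM, and its LGP2 libraries were the highest and the lowest of the 4. KIFC1 (chromosome 6, 33391536 to 33409924, plus strand) was at 81.7 and 87.6 CPM against 91.7 and 80.6 CPM, again with the LGP2 libraries at both ends.

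Of the remaining mitotic motors, KIF23 of the centralspindlin complex was at 43.9 and 67.9 CPM against 59.1 and 72.1 CPM. KIF18B, which limits astral microtubules (chromosome 17, 44924709 to 44947711, minus strand), was at 36.4 and 44.8 CPM against 38.5 and 38.7 CPM, and had the lowest fold change of the mitotic members above 1 CPM, -0.11 (SE 0.16, 95% interval -0.48 to 0.25). KIF20B, a cytokinesis motor, was at 7.20 and 8.35 CPM against 5.996 and 9.72 CPM. None of these separated the groups. Within the mitotic set the log2 fold changes of members above 1 CPM thus ran from -0.11 for KIF18B to 0.80 for KIF15, and the central spindle motors KIF20A, KIF23, KIF4A and KIF20B all had groups that overlapped.

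**Figure D3:**
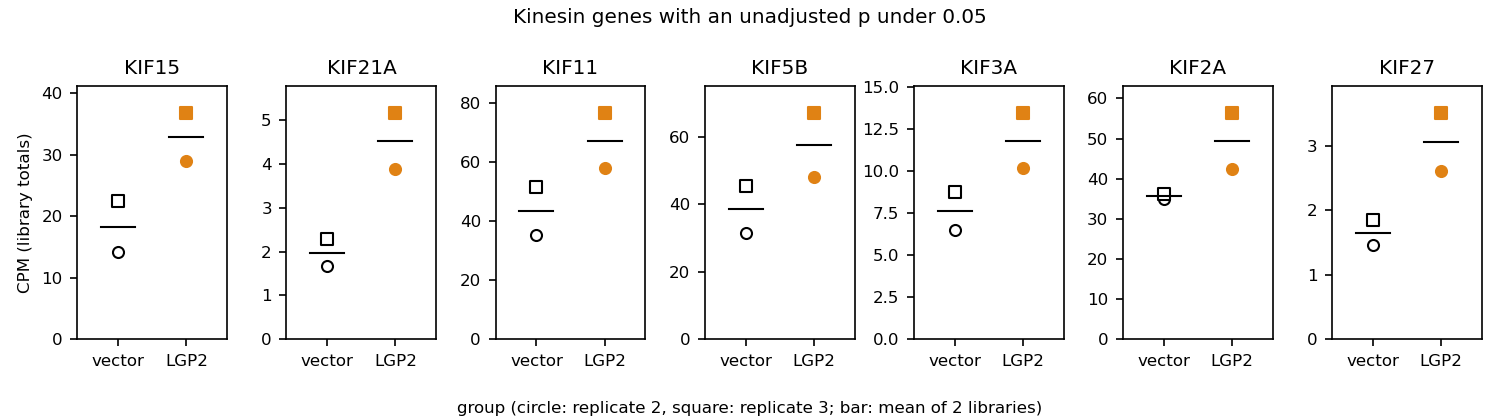
CPM in each library for the 7 kinesin genes with an unadjusted p under 0.05 (open: vector; filled: LGP2 overexpression; circle: replicate 2; square: replicate 3; bar: mean of 2 libraries; each panel has its own axis from 0). In each panel vector replicate 2 is lowest and LGP2 replicate 3 highest, as for KIF15 at 14.2 and 36.8 CPM; none of the 7 passed the adjusted threshold.

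Promoters of the mitotic kinesins hold sequence elements known from G2 and M phase genes. The search window ran from 250 bases before to 50 bases after the start in RefSeq (GRCh38.p14), and 30 of the 37 members had an entry. The elements were the cell cycle homology region (CHR), searched as TTTGAA or TTCGAA, and the CCAAT box, each on both strands, and they do not overlap each other in letters. Capitals below mark the matches on either strand, so that a CCAAT box on the other strand reads ATTGG and a CHR reads TTCAAA. The set shows motors with both elements (KIF11, KIF23 and the transport motor KIF5B), with a single kind (KIF15 and KIF20A) and with neither (KIF1C).
KIF11, chr10:92592880-92593179, plus strand: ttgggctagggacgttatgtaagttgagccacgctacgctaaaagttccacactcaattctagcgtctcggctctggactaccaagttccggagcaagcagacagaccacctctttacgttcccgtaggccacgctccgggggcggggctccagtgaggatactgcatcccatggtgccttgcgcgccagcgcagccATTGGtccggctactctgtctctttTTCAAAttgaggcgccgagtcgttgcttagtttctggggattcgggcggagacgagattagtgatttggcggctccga
KIF23, chr15:69414099-69414398, plus strand: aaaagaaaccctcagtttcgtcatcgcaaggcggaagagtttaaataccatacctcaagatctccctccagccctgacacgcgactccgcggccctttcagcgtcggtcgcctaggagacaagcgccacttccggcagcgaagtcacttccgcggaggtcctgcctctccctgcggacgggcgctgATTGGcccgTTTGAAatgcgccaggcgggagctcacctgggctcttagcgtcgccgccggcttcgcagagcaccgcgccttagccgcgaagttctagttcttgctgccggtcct
KIF15, chr3:44761544-44761843, plus strand: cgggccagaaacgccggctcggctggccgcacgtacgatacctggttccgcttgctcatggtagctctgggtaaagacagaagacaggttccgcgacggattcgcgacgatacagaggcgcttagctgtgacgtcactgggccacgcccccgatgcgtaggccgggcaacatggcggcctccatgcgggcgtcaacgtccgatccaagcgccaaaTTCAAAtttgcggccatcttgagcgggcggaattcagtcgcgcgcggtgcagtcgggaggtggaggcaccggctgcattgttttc
KIF20A, chr5:138178862-138179161, plus strand: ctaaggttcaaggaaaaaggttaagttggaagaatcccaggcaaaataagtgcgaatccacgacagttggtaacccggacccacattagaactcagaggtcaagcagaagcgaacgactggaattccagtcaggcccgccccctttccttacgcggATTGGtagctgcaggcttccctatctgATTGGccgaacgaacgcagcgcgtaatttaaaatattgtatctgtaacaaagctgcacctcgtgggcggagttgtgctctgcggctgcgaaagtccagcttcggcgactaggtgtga
KIF5B, chr10:32056376-32056675, minus strand: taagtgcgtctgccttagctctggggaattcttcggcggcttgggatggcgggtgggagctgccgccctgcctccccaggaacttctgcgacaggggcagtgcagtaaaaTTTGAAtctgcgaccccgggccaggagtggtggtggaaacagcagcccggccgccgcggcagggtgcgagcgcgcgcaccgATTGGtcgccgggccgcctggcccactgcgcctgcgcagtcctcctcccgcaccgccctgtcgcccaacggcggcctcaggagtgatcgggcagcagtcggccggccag
KIF1C, chr17:4997700-4997999, plus strand: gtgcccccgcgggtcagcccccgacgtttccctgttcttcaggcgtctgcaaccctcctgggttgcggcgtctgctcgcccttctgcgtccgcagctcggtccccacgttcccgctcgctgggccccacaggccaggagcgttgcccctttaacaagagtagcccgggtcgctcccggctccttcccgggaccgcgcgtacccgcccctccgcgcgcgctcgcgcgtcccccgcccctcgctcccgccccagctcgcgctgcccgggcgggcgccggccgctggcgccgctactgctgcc
A CHR was present in 11 of 14 mitotic kinesin promoters (78.6%), in 1 of 11 transport kinesin promoters (9.09%, KIF5B) and in 1 of 5 of the others (20.0%, KIF24), against 11.4% of the 11906 promoters of genes in the table. A CCAAT box was present in 11 of 14 (78.6%), 3 of 11 (27.3%) and 2 of 5 (40.0%), against 36.7% of all. Both were present in 10 of the 14 mitotic promoters (71.4%) and in 4.96% of all promoters, beside 10 of 19 promoters (52.6%) of a list of other G2 and mitosis genes.

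The mitotic motors with the largest fold changes were not set apart by these letters. KIF11, at a log2 fold change of 0.59, and KIF23, at 0.19, both hold a CHR and a CCAAT box. So do KIF14, at 0.58, KIF18A, at 0.53, KIF4A, at 0.05, and KIF22, at 0.02. The same holds for KIFC1, at -0.02, KIF20B, at -0.03, KIF18B, at -0.11, and KIF4B, at -0.51. KIF15, at 0.80, holds only a CHR, KIF20A, at -0.05, only CCAAT boxes, and KIF2A, at 0.42, and KIF2C, at 0.06, hold neither in this window. A match is a description of the letters and does not show that a factor binds there.

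Among the transport motors KIF21A had the largest fold change of all kinesins above 1 CPM (chromosome 12, 39293228 to 39443390, minus strand). KIF21A is known for restraining microtubule growth at the cell cortex, and its variants cause an eye movement disorder. It had 107 and 136 reads with the vector and 217 and 326 with LGP2, or 1.67 and 2.28 CPM against 3.87 and 5.15 CPM. The lower LGP2 library was above the higher vector library, at a low level. KIF21A was 1.15 higher on the log2 scale and did not pass (SE 0.33, 95% interval 0.41 to 1.88, adjusted p = 0.998, edgeR). Its relative KIF21B (chromosome 1, 200969390 to 201023700, minus strand) was at 9.26 and 13.5 CPM against 8.98 and 11.1 CPM, the lowest fold change of the transport motors, -0.22 (SE 0.23, 95% interval -0.74 to 0.29).

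KIF5B, the ubiquitous heavy chain of conventional kinesin (chromosome 10, 32009010 to 32056431, minus strand), was at 31.5 and 45.4 CPM with the vector and at 48.1 and 66.9 CPM with LGP2. The groups were separated by less than the spread within each. KIF5B was 0.54 higher on the log2 scale and did not pass (SE 0.20, 95% interval 0.09 to 0.99, adjusted p = 0.998, edgeR). Its paralogs KIF5A, at 13.8 and 16.1 CPM against 16.1 and 14.7 CPM, and KIF5C, at 6.84 and 10.9 CPM against 10.7 and 13.05 CPM, had groups that overlapped.

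KIF3A, the subunit of heterotrimeric kinesin-2 that pairs with KIF3B or KIF3C (chromosome 5, 132692628 to 132737638, minus strand), was at 6.49 and 8.75 CPM with the vector and at 10.2 and 13.4 CPM with LGP2. Both LGP2 libraries were higher, by 0.59 on the log2 scale, which did not pass (SE 0.24, 95% interval 0.06 to 1.11, adjusted p = 0.998, edgeR). The gap between the groups was smaller than the spread within either. KIF3B (chromosome 20, 32277664 to 32335011, plus strand) was at 60.8 and 108 CPM against 102 and 99.4 CPM. In KIF3B, a single library, vector replicate 2, was apart from the other 3, and KIF3B was at 0.22 on the log2 scale (SE 0.21, 95% interval -0.24 to 0.68). KIF3C (chromosome 2, 25926596 to 25982749, minus strand) was at 47.0 and 65.5 CPM against 52.8 and 54.1 CPM, with both LGP2 libraries between the vector libraries.

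KIF1C and KIFC3, the most abundant transport motors per length, had fold changes of -0.09 and -0.16, and the next, KIF3B, had 0.22. KIF1C (chromosome 17, 4997948 to 5028401, plus strand), known for carrying dense-core vesicles and integrins, was at 196 and 226 CPM with the vector and at 202 and 208 CPM with LGP2. Its LGP2 libraries lay between the vector libraries, with a log2 fold change of -0.09 (SE 0.14, 95% interval -0.40 to 0.22). KIFC3, a minus-end motor found at cell junctions (chromosome 16, 57758217 to 57863053, minus strand), was at 176 and 155 CPM against 141 and 167 CPM, with -0.16 (SE 0.16, 95% interval -0.50 to 0.19). KIFC2, another minus-end motor and lower per length at 8.46 RPKM, was at 37.0 and 38.0 CPM against 36.3 and 39.2 CPM.

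Of the endosome and organelle motors, KIF13A was at 38.8 and 50.3 CPM against 54.3 and 57.8 CPM, with groups that did not overlap and a log2 fold change of 0.29 (SE 0.16). KIF1B, which carries mitochondria and synaptic vesicle precursors, was at 57.9 and 85.2 CPM against 69.2 and 76.8 CPM. KIF16B, a motor of early endosomes, was at 4.90 and 10.4 CPM against 6.96 and 8.50 CPM, and KIF13B was at 5.99 and 7.46 CPM against 6.92 and 7.41 CPM. In these last 3 both LGP2 libraries lay between the vector libraries. KIF17 had 47 and 12 reads against 37 and 67, and its groups overlapped, with the vector libraries as the second highest and the lowest of the 4 by reads.

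Of the kinesins of cilia and other functions, KIF7 was the most abundant at 12.6 RPKM. KIF7 regulates Hedgehog signalling at the ciliary tip (chromosome 15, 89608789 to 89655451, minus strand), and was at 57.9 and 66.1 CPM against 62.3 and 66.0 CPM. With a log2 fold change of 0.01 (SE 0.14, 95% interval -0.30 to 0.32) it had the narrowest interval of this set. KIF24, which restrains cilium formation at the centriole (chromosome 9, 34252381 to 34311371, minus strand), was at 9.79 and 15.6 CPM against 15.3 and 13.2 CPM.

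KIF27, a relative of KIF7 linked to motile cilia in mice (chromosome 9, 83836698 to 83921465, minus strand), had 94 and 110 reads with the vector and 146 and 222 with LGP2. That is 1.47 and 1.84 CPM against 2.61 and 3.51 CPM, so both LGP2 libraries were higher at a low level, by 0.84 on the log2 scale, which did not pass (SE 0.36, 95% interval 0.03 to 1.65, adjusted p = 0.998, edgeR). KIF9 was at 6.19 and 5.43 CPM against 6.25 and 6.70 CPM and overlaps the antisense gene KIF9-AS1. KIF25 had 23 and 25 reads against 36 and 68. KIF6 had 40 and 26 reads against 6 and 14, the only kinesin lower in both LGP2 libraries, with a log2 fold change of -1.74 (SE 0.93) and a 95% interval from -3.80 to 0.33. KIF26B was at 1.86 and 2.58 CPM against 2.37 in both LGP2 libraries.

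The 7 kinesins with an unadjusted p under 0.05 by edgeR had transcripts of low GC content, a feature that the choice by symbol did not use. The GC content of the longest annotated transcript ran from 34.2% to 68.1% over the family, and from 37.8% to 42.1% over these 7. Of the 37 members 10 were at or below that upper value. Of the 11 kinesins higher in both LGP2 libraries, KIF25 (53.6% GC), KIF9 (51.8%) and KIF13A (46.4%) lay above it. In classes bounded at 42% and 55% after the values were seen, the median log2 fold change was 0.58 over the 9 kinesins under 42% GC (8 of 9 above 0), 0.06 over the 19 between (13 of 19 above 0) and -0.04 over the 9 above 55% GC (3 of 9 above 0). The exception in the low class was KIF20B, with the lowest GC content of the family and a log2 fold change of -0.03.

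The whole table showed the same order by GC content. The median log2 fold change was 0.18 over the 4021 tested genes under 42% GC, -0.01 over the 8488 between and -0.11 over the 4969 above 55%. At an unadjusted p under 0.05, 9.87% of the tested genes under 42% GC were higher, against 1.21% of those between and 0.523% of those above 55%. Of the kinesins under 42% GC, 6 of 9 were (66.7%), beside 1 of 19 (5.26%) and 0 of 9 in the other classes. Across the 37 kinesins Spearman's rho between fold change and GC content was -0.52 and Pearson's r was -0.31, and across the 17478 tested genes with a GC content rho was -0.34. These correlations are across genes of the same 4 libraries, which are not independent replicates, and are given as a description.

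The same relation stood between libraries of the same group. Across the kinesins, rho between GC content and the difference of vector replicate 3 minus vector replicate 2 was -0.49, and that for LGP2 replicate 3 minus LGP2 replicate 2 was -0.40. Across all genes these values were -0.19 and -0.30. With exon length in place of GC content, rho was 0.39 and 0.24 across the kinesins, and 0.20 and 0.08 across all genes. Each library's median deviation in log2 CPM over the 9 kinesins under 42% GC was -0.48 and -0.07 with the vector and 0.11 and 0.48 with LGP2. Over the 9 kinesins above 55% GC it was 0.01 and 0.01 against -0.04 and 0.02. For the low-GC kinesins the group means of this score were -0.28 and 0.30, a difference of 0.57, beside differences of 0.41 between the vector libraries and 0.37 between the LGP2 libraries.

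With a correction for GC content and length in each library, the fold changes of the kinesins under 42% GC, and of KIF21A at 42.1%, were lower. That of KIF15 was 0.66 on the log2 scale instead of 0.80, that of KIF21A 0.98 instead of 1.15, that of KIF11 0.39 instead of 0.59 and that of KIF5B 0.33 instead of 0.54. KIF3A went to 0.35 from 0.59, KIF2A to 0.28 from 0.42 and KIF27 to 0.65 from 0.84. KIF14 was at 0.37 with the correction and 0.58 without it, and KIF18A at 0.29 and 0.53. KIF20B, with the lowest GC content, went to -0.33 from -0.03, farther from 0. Across the 37 kinesins Spearman's rho between fold change and GC content was -0.35 with the correction and -0.52 without it. Pearson's r was -0.10 with the correction and -0.31 without it. The median over the kinesins under 42% GC was 0.35 with the correction, and over all tested genes of that class it was -0.01. The correction was fitted to the tested genes of each library, so a median near 0 over all genes of a class follows from the fit. It would also take out a difference between the groups that runs along GC content. The medians of the roles were not lower with the correction. They were 0.09 instead of 0.06 for mitotic, 0.07 instead of 0.03 for transport and 0.14 instead of 0.10 for other kinesins. With the correction 4 kinesins had an unadjusted p under 0.05 and were higher (KIF15, KIF5B, KIF11 and KIF21A, 10.8% of the 37, against 1.87% of the table), 0 were lower (against 2.19%), and 0 were called (against 0.0172%). Among genes under 42% GC these shares were 3 of 9 kinesins (33.3%) and 3.81% of the tested genes. Whether base composition itself or something that varies with it sets these levels was not tested.

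**Figure D4:**
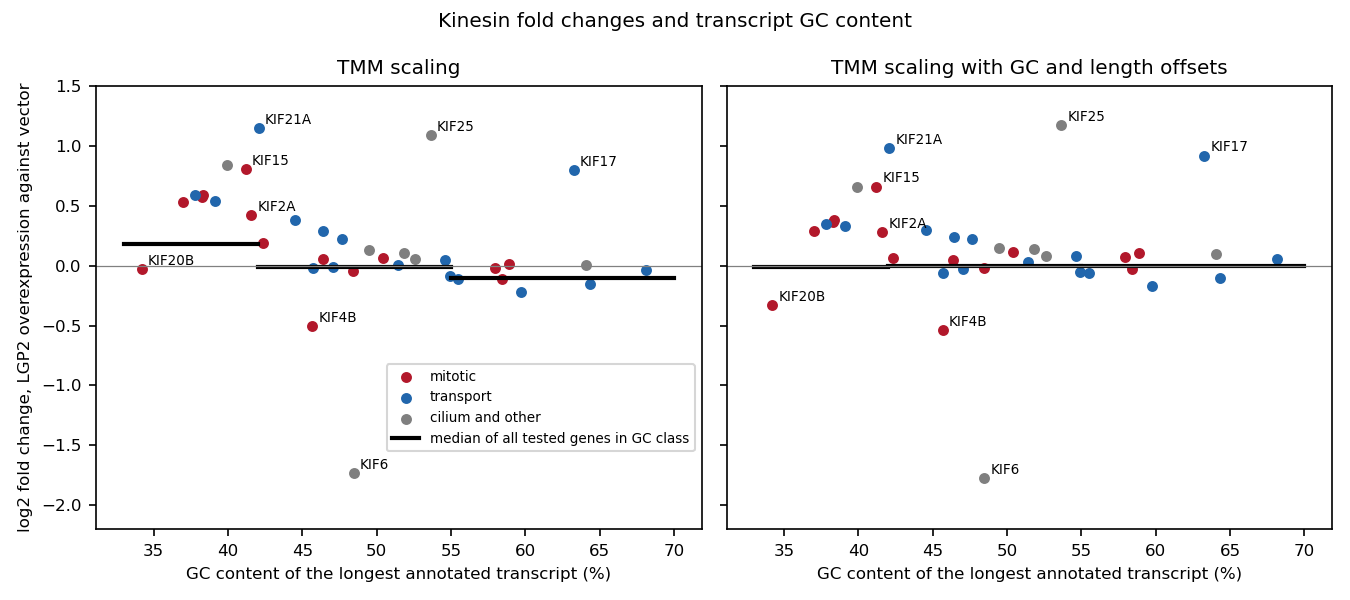
Log2 fold change of each kinesin gene against the GC content of its longest transcript, with TMM scaling alone (left) and with GC and length offsets (right); black lines are the medians of all tested genes under 42%, from 42% to 55% and above 55% GC. On the left most kinesins under 42% GC lie above 0 with a median of 0.58, against 0.18 for all genes of that class. On the right these medians are 0.35 and -0.01, the latter near 0 through the fit of the offsets.

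Single libraries decided how many kinesins passed. Without vector replicate 3, 4 kinesins were called as higher by edgeR, against 291 of 18677 tested genes (1.56%). They were KIF15 (log2 fold change 1.11, adjusted p = 0.00266), KIF11 (0.83, adjusted p = 0.00202), KIF5B (0.77, adjusted p = 0.0109) and KIF3B (0.63, adjusted p = 0.016). In that fit the lone vector library, replicate 2, is taken to vary like the LGP2 libraries. The number with an unadjusted p under 0.05 was then 13, against 8.58% of the table. Over all 37 kinesins the median log2 fold change was 0.23 without vector replicate 3 and -0.01 without vector replicate 2. It was 0.08 and 0.11 without LGP2 replicates 2 and 3, against 0.06 with all 4 libraries. KIF3B went from 0.63 without vector replicate 3 to -0.10 without vector replicate 2. With single libraries left out, KIF15 ran from 0.55 to 1.11, KIF21A from 0.95 to 1.33 and KIF11 from 0.38 to 0.83. Their groups do not overlap, which favours an unchanged sign in these fits but does not fix it. KIF9, whose groups did not overlap either, ran from -0.035 to 0.26.

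**Figure D5:**
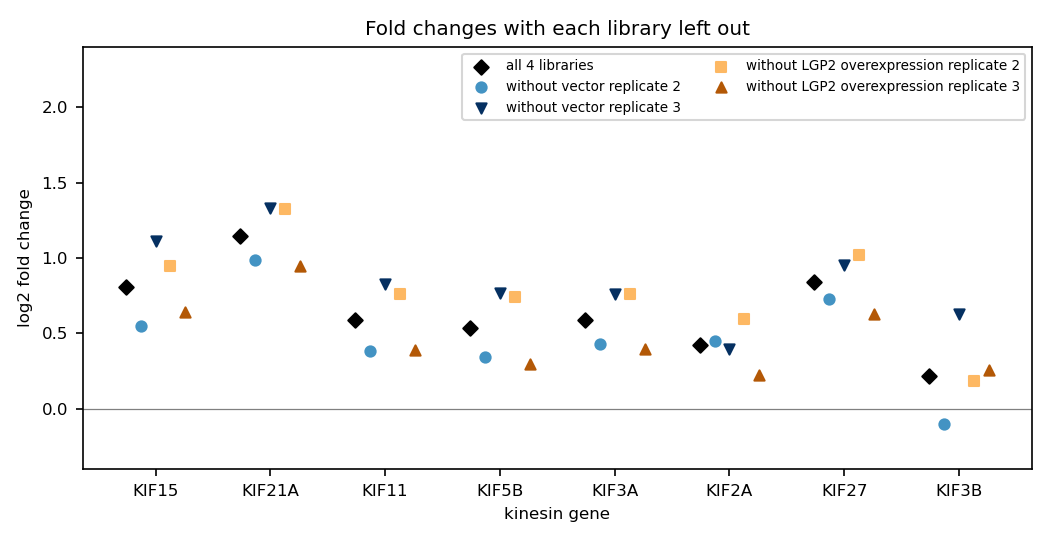
Log2 fold changes of 8 kinesin genes with all 4 libraries and with each library left out in turn. KIF15 runs from 0.55 to 1.11, while KIF3B runs from -0.10 to 0.63 depending on which vector library is left out.

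Genes that work with kinesins were read from lists of their partners, and none of the lists held a called gene. Of the light chains and accessory subunits 6 of 7 were tested, with 3 above 0, a median log2 fold change of -0.05 and 0 with an unadjusted p under 0.05. KIFAP3, the third subunit of the KIF3A and KIF3B motor, was at 11.9 and 12.4 CPM with the vector and 15.6 and 17.1 CPM with LGP2, so the groups did not overlap (log2 fold change 0.38, SE 0.19). KLC4, a light chain that links conventional kinesin to cargo, was at 17.8 and 21.0 CPM against 16.9 and 14.7 CPM (-0.34, SE 0.19). KLC3 was not analysed here.

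Of 20 spindle and midzone partners 13 were above 0, with a median of 0.04, and 2 were higher and 1 lower at an unadjusted p under 0.05. The shares of all tested genes at that p by edgeR were 3.00% higher and 1.46% lower. ECT2, the exchange factor that centralspindlin brings to the division plane, was at 28.7 and 47.0 CPM against 47.9 and 67.9 CPM (log2 fold change 0.58, SE 0.23). ANLN, a scaffold of the contractile ring, was at 153 and 222 CPM against 238 and 297 CPM (0.47, SE 0.18). Both have transcripts of low GC content, 38.0% and 40.0%, and with the GC and length correction their values were 0.36 and 0.29. Over 22 other G2 and mitosis genes 12 were above 0, with a median of 0.03, and 1 was higher and 0 lower at an unadjusted p under 0.05. DLGAP5, a spindle assembly factor, was at 24.7 and 39.1 CPM against 44.2 and 49.8 CPM (0.52, SE 0.20), and PTTG1, which encodes securin, was at 303 and 331 CPM against 281 and 255 CPM (-0.29, SE 0.15). INCENP of the chromosomal passenger complex, picked after its values were seen as the lower gene of the first list, was at 57.6 and 68.8 CPM against 52.2 and 48.5 CPM (-0.37, SE 0.15). Without the GC and length correction the medians of both lists lay close to the 0.06 of the mitotic kinesins. With it they were -0.01 and 0.01, beside 0.09 for the mitotic kinesins.

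For transport, 25 dynein and dynactin genes had a median of -0.10 with 10 above 0, 19 cargo adaptors had -0.05 with 7 above 0, and 18 genes of intraflagellar transport had 0.04 with 11 above 0. At an unadjusted p under 0.05, 1, 2 and 0 of them were higher, and 0 lower in each list. Of all tested genes, 3.00% were higher and 1.46% lower at that p by edgeR. HOOK3, an adaptor that activates dynein, was at 11.7 and 15.7 CPM against 21.0 and 22.6 CPM (log2 fold change 0.63, SE 0.20). KIDINS220, a membrane scaffold carried by kinesin, was at 15.9 and 17.4 CPM against 24.9 and 27.7 CPM (0.61, SE 0.18), and SPAG9, a scaffold that binds kinesin light chains, was at 79.5 and 107 CPM against 121 and 124 CPM (0.35, SE 0.15). The groups did not overlap for these 3 genes, nor for DCTN4, DYNC2H1 and TUBE1 below, all of them higher with LGP2. Over the whole table, 19.0% of the tested genes were higher without overlap. DCTN4, a dynactin subunit, was at 55.03 and 63.0 CPM against 72.3 and 74.4 CPM (0.27, SE 0.14). Of the intraflagellar transport genes, IFT80 was at 10.5 and 20.7 CPM against 20.6 and 27.3 CPM, and the ciliary dynein heavy chain DYNC2H1 at 5.13 and 6.37 CPM against 7.17 and 9.86 CPM. Of 15 tubulin genes 2 were above 0, with a median of -0.09 and 0 at an unadjusted p under 0.05. TUBB2A was at 26.6 and 17.9 CPM against 18.7 and 15.01 CPM, and TUBE1 at 14.8 and 14.05 CPM against 16.8 and 19.6 CPM. With the GC and length correction the medians of the lists were 0.02 for the light chains and accessory subunits, -0.01 for the spindle and midzone partners, 0.01 for the G2 and mitosis genes, -0.06 for dynein and dynactin, -0.03 for the cargo adaptors, -0.02 for intraflagellar transport and -0.01 for the tubulins. The tubulins, with a median GC content of 57.0%, thus had a median nearer 0 with the correction, and those of the spindle partners and of intraflagellar transport changed sign.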

How the data were processed

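For 4 T98G libraries, 2 per group, the authors deposited raw counts of reads by human gene symbol. Per the labels' protocols, total RNA came from a TRIzol extraction and a SMARTER mRNA-Seq kit was used. The submitters' processing notes name the mouse build mm10. Aligner, counter and strand setting: not given in the sources used here. The kinesin rule, roles and gene lists were chosen with earlier results of these data known.

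Counts were tested with edgeR 4.0.16 (R 4.3.3; quasi-likelihood, two-sided, TMM, filterByExpr by group), with Benjamini-Hochberg adjustment over 17863 genes and a threshold of 0.05. The filter removed 3050 genes. DESeq2 1.42.0 and limma 3.58.1 (voom) were alternatives, as were other scalings, filters, a replicate block, GC and length offsets (splines fitted to each library, 5 degrees of freedom) and fits that leave out 1 library. The main edgeR fit was also run on simulated counts with known changes. There it called 14.4% of 1.5-fold, 53.2% of 2-fold, 91.2% of 4-fold and 96.4% of 8-fold changes, so it misses most small changes. CPM values use library totals. Coordinates, lengths and GC contents come from GENCODE 29 (GRCh38), which matched 19831 symbols exactly, 464 through older symbols and 618 not at all, and may differ from the annotation behind the counts. Transcript GC was known for 97.8% of tested genes. Intervals are 95% and come from the model.

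Values per library are given for DHX58, for kinesins called or with an unadjusted p under 0.05, for the 4 most abundant per length of each role (2 for cilium and other), for the highest and lowest fold change of each role above 1 CPM, and from each list for the called genes or the 2 with the smallest p. The other kinesins, named outside this rule, account for the rest of the family.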

Additional observations from a re-analysis of the deposited data

How the results depend on the processing

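The edgeR test called 3 genes of all tested. It called 1 without a filter and 6 with at least 5 CPM in 2 libraries, DESeq2 called 22 and limma-voom 6, and leaving out single libraries gave from 2 to 432 (78 without vector replicate 2 and 432 without vector replicate 3). The labels state no pairing of the replicate numbers. With a replicate block 8 genes were called. Across 13451 genes, the difference between replicates 2 and 3 with the vector and that with LGP2 had a correlation of 0.12. The count of kinesins called was 0 under each alternative but that without vector replicate 3, where it was 4 (from 0 to 4 with single libraries left out). Kinesins higher at an unadjusted p under 0.05 were 7, against 4 with GC and length offsets, 4 with the replicate block and those offsets, and from 0 to 13 with single libraries left out. Of all tested genes, 3.00% were higher at that p by edgeR, and 1.87% with the GC and length offsets. Without vector replicate 3 the share of the table, given above, was larger than in the main fit. The share thus moved with the setting, so these counts of kinesins cannot be compared by themselves. With single libraries left out, the medians lay between 0.067 and 0.17 for mitotic and between -0.032 and 0.20 for transport kinesins. The causes were not tested.

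Of 363 kinesin fold changes under the other alternatives, 349 kept their direction and side of the threshold. Those that changed sign were near 0. With library totals alone, which moved the median of all genes from -0.01 to 0.04, KIF16B was at 0.012, KIF1B at 0.029, KIF20B at 0.017, KIFC1 at 0.025 and KIFC2 at 0.0095. With limma-voom KIF16B was at 0.065, KIF1B at 0.0084 and KIF5A at -0.0019. With the replicate block KIF16B was at 0.054 and KIF1B at 0.0071. With the offsets KIFC1 was at 0.075 and KIFC2 at 0.054, and with the replicate block as well they were at 0.075 and 0.050.

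Of 148 values with single libraries left out, 27 changed sign and 4 passed the threshold. The ranges that cross 0 were -0.055 to 0.16 for KIF13B, -0.43 to 0.56 for KIF16B, -0.22 to 0.24 for KIF1B, -0.35 to 0.21 for KIF20A, -0.40 to 0.26 for KIF20B, -0.43 to 0.016 for KIF21B, -0.12 to 0.14 for KIF22, -0.047 to 0.48 for KIF23, -0.13 to 0.44 for KIF24, -0.12 to 0.25 for KIF26B, -0.12 to 0.23 for KIF2C, -0.100 to 0.63 for KIF3B, -0.29 to 0.088 for KIF3C, -0.15 to 0.23 for KIF4A, -1.15 to 0.16 for KIF4B, -0.085 to 0.085 for KIF5A, -0.039 to 0.050 for KIF7, -0.035 to 0.26 for KIF9 and -0.13 to 0.086 for KIFC1. Genes with few reads limit what can be seen, as for KIF6, KIF17, KIF25 and KIF4B, whose intervals include both a 2-fold change and 0.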
